A study of Mus musculus with 17 samples.

Results

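This comparison sets astrocytes of the dorsolateral geniculate nucleus (dLG), the visual relay nucleus of the thalamus, against astrocytes of the ventral posteromedial nucleus (VPM), the somatosensory relay nucleus. It uses 9 of the 17 astrocyte libraries of the series, namely the 5 labelled dLG (replicates a to e) and the 4 labelled VPM (replicates a to d). All 9 came from *Gfap::GFP* mice of the FVB strain at postnatal day 7 (P7), in which a promoter of the glial gene *Gfap* drives green fluorescent protein, and none carried another allele or received a treatment. For each library, the nucleus was dissected from vibratome slices of 4 pooled brains, and fluorescent cells were sorted, so that the sorted population holds whichever cells the promoter labels. The question is which genes differ between astrocytes of nuclei that serve different senses.

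Relay nuclei of the dorsal thalamus arise from a shared progenitor domain and pass sensory signals to their own cortical areas, the dLG from the retina and the VPM from the whiskers and face. Astrocytes in this tissue take up glutamate and GABA, buffer potassium, couple through gap junctions, and secrete matrix and synapse-organizing proteins. The first postnatal week is a time when astrocytes multiply and mature, myelination begins, and sensory synapses are refined.

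Each library held between 18213687 and 21519981 counts, and 3 counts, taken as the limit of detection, corresponded to 0.140 to 0.166 CPM. CPM is the count per 1000000 counts of the library in the genes tested, scaled by edgeR's TMM factors. These limits cover counting error only, and they set what the low levels below can show. dLG library c stood apart, with 17749 genes detected against 21052 to 23019 in the other 8 libraries. The library numbers in the labels fall into 3 series, of which one holds dLG a and b with VPM c and d, one holds dLG d and e with VPM a and b, and one holds dLG c alone. VPM library b held 1.345% mitochondrial counts against 0.556% to 0.671% in the other VPM libraries. Nothing in the labels says that libraries are of different litters, so p-values measure the spread between pools of brains.

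The first principal component of the 500 most variable genes held 61.6% of the variance and placed all 5 dLG libraries above all 4 VPM libraries. Its scores in dLG libraries a to e were 4.37, 7.08, 17, -0.808, and 11.7. Its scores in VPM libraries a to d were -11.0, -6.72, -10.7, and -10.8. The dLG libraries were thus spread more widely than the VPM libraries, 3 of which lay within a narrow range, and dLG d lay nearest to VPM. The means were 7.85 ± 6.80 (SD, n = 5) and -9.81 ± 2.07 (SD, n = 4), a difference of 17.7 (exact permutation test, 2-sided, p = 0.0159 over 126 arrangements). The second component, with 15.3% of the variance, set dLG c apart at -9.95.

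**Figure D1:**
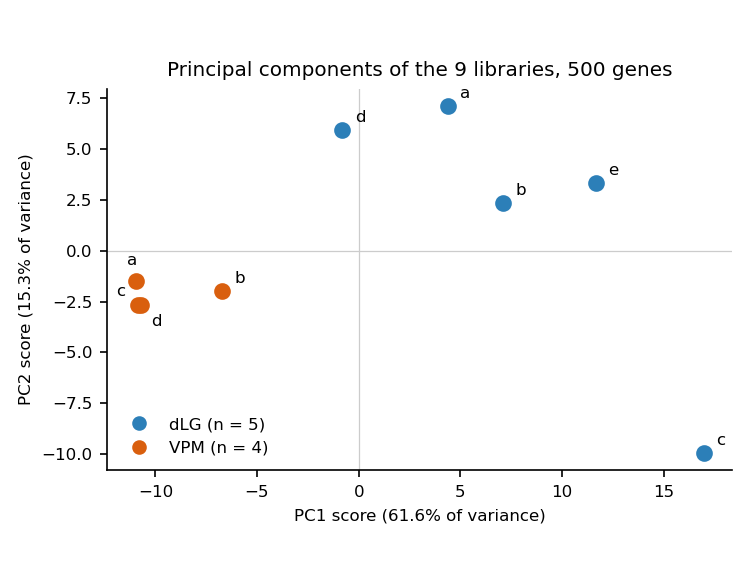
Scores of the 9 libraries on the first and second principal components (regularized log counts, 500 genes of highest variance, each axis with its share of variance), one point per library with its replicate letter. The dLG libraries (blue) lie between -0.808 and 17 on the first axis and the VPM libraries (orange) between -11.0 and -6.72, and dLG c lies lowest on the second axis.

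After genes with low counts were left out, 16338 remained, of which 1058 were higher in dLG (6.48%) and 398 were higher in VPM (2.44%), at a Benjamini-Hochberg (BH) adjusted p under 0.1 in edgeR's quasi-likelihood test. Together these are 1456 genes, or 8.91%, and 72.7% of them were higher in dLG. Differences are given as log2 fold changes of dLG over VPM (log2FC), which were larger on the dLG side. The median log2FC of the called genes was 1.00 for those higher in dLG and -0.65 for those higher in VPM, against 0.02 over all genes tested. A log2FC beyond 1 in size was found for 531 of the genes higher in dLG and 65 of those higher in VPM. The genes called higher in dLG had longer exons in sum, with a median of 6402 bases against 4067 over all genes tested and 3842 in those higher in VPM, and the part of transcript length in the result was not tested. Over all genes tested, every dLG library lay above every VPM library for 6.15%, and every VPM library above every dLG library for 4.66%. Among the called genes, this held for 715 of the 1058 and 311 of the 398. The shares of 6.48% and 2.44% are the background for the counts of gene lists below.

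These counts moved with single libraries. Without dLG a, b, c, d, or e, the genes higher in dLG numbered 966, 343, 874, 1885, or 680, and those higher in VPM 388, 106, 371, 1325, or 337. Without VPM a, b, c, or d, they numbered 164, 687, 167, or 257, and 56, 359, 41, or 74. Within the series of dLG a and b and VPM c and d, 1177 and 678 genes passed. Within the series of dLG d and e and VPM a and b none passed, with 640 of 16389 genes at an unadjusted p under 0.05 in edgeR. There, 1054 of 1054 tested genes called higher in dLG and 397 of 397 called higher in VPM had the same sign as over the 9 libraries, which include these 4. No call of the 24 leading genes described below was kept within that series either. Of the genes named below, none that passed changed sign under any alternative, and where the omission of 1 library ended a call, the highest adjusted p is given.

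Astrocyte markers were abundant in every library, with a summed level over 12 genes of 8230 to 9746 CPM in dLG and 6841 to 9420 CPM in VPM. *Aqp4*, the astrocyte water channel, was at 1825 to 2536 in dLG and 1489 to 2156 CPM in VPM. *Gja1*, which encodes the gap junction protein connexin 43, was at 954 to 1518 in dLG and 1510 to 2263 CPM in VPM. Of the 12 genes, 3 were higher in dLG (*Gfap*, *Sox9*, and *Aldh1l1*) and 3 higher in VPM (*Gjb6*, *Gja1*, and *S100b*), with a median log2FC of -0.02. This is 25.0% in each direction, against 6.48% for dLG and 2.44% for VPM over all genes. The astroglial transcription factor *Sox9* was at 582, 727, 939.7, 714, and 606 in dLG and 328, 515, 375, and 309 CPM in VPM (log2FC 0.90, adjusted p = 0.03), with no overlap between the groups. *Aldh1l1*, an enzyme of folate metabolism, was at 566 to 871 in dLG and 318 to 585 CPM in VPM (log2FC 0.68, adjusted p = 0.0631), and 13.4% of its exonic length overlaps *Gm15756*. *S100b*, a calcium-binding protein, was at 183 to 289 in dLG and 282 to 377 CPM in VPM (log2FC -0.50, adjusted p = 0.0957). Without VPM a, c, or d the calls of *Sox9* and *Aldh1l1* were lost, the latter also without dLG b (adjusted p up to 0.111 and 0.191). Those of *Gja1* and *S100b* were lost without most single libraries, VPM a to d and dLG a to c among them (adjusted p up to 0.27 and 0.228).

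Markers of oligodendrocyte precursors were higher than those of astrocytes in every library. The 10 genes of that list summed to 9399 to 12672 CPM in dLG and 9714 to 11749 CPM in VPM. Per kilobase of exon it came to 2476 to 3267 CPM in dLG and 2559 to 3247 CPM in VPM, against 1542 to 1748 CPM and 1250 to 1765 CPM for the astrocyte list. *Olig1* was at 2880 to 4213 in dLG and 3257 to 3815 CPM in VPM, and *Ptprz1* was at 2699 to 4038 in dLG and 2423 to 3109 CPM in VPM. The latter is also expressed by astrocytes. By these lists the libraries hold precursor beside astrocyte transcripts in both nuclei, in ranges that overlap between the groups, and the sorted cells are called astrocytes here only as the labels call them. The proteoglycan gene *Cspg4* was higher in dLG (169 to 593 in dLG and 155 to 199 CPM in VPM, log2FC 1.07, adjusted p = 0.0811), a call lost without any 1 of dLG b, c, or e or VPM a to d (adjusted p up to 0.206). *Neu4*, a sialidase, was higher in VPM, at 187, 140.0, 133, 208, and 185 in dLG and 396, 255, 354, and 356 CPM in VPM (log2FC -0.995, SE 0.17, adjusted p = 0.012), with no overlap.

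Markers of myelinating oligodendrocytes differed between the nuclei. The 13 genes summed to 3116, 1675, 1861, 3662, and 2728 CPM in dLG a to e and to 6217, 2272, 4108, and 4857 CPM in VPM a to d, so that 3 VPM libraries lay above all dLG libraries and VPM b lay among them. Of 11 tested, 4 were higher in VPM (36.4%, against 2.44% over all genes) and none in dLG, with a median log2FC of -0.70. Leaving out 1 library gave 0 (without VPM a or c) to 7 (without VPM b) in VPM. *Ugt8a*, which makes the myelin lipid galactosylceramide, was at 140.5, 79.7, 107, 193, and 81.9 in dLG and 383, 191, 381, and 306 CPM in VPM (log2FC -1.39, adjusted p = 0.0282). *Mog*, which encodes a myelin protein, was at 1.34 to 4.63 in dLG and 4.27 to 18.1 CPM in VPM (log2FC -1.79, adjusted p = 0.0624). *Mobp*, of another myelin protein, was at 0 to 3.08 in dLG and 2.77 to 23.3 CPM in VPM (log2FC -3.70, adjusted p = 0.0916). *Fa2h*, of myelin lipid synthesis, was at 39.2 to 98.2 in dLG and 72.1 to 157 CPM in VPM (log2FC -0.92, adjusted p = 0.0947). *Mbp* and *Cnp* did not pass, at 469.9 to 1213 in dLG and 546 to 1952 CPM in VPM and 615 to 1013 in dLG and 749 to 1617 CPM in VPM. These calls were lost without VPM a or VPM c, and those of *Mog*, *Mobp*, and *Fa2h* also without VPM d or dLG b, with further losses without dLG a, c, or e (adjusted p up to 0.292). With the mean level of these markers as a covariate, 72 genes passed as higher in dLG and 22 as higher in VPM, against 188 and 71 with the neuronal marker level as a covariate. Of the 155 named genes that passed, 45 passed with the former and 74 with the latter. In bulk libraries, fewer cells of a type and less RNA per cell cannot be told apart.

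Microglial transcripts were low in both groups. The 12 genes summed to 209, 49.0, 73.8, 137, and 98.7 CPM in dLG a to e and to 40.6, 48.1, 57.5, and 50.9 CPM in VPM a to d, and dLG b lay within the VPM range. All 12 had a positive log2FC, with a median of 2.40, and 5 passed (41.7%, against 6.48% higher in dLG over all genes). The chemokine receptor *Cx3cr1* was at 10.7, 2.25, 3.34, 10.6, and 7.44 in dLG and 1.21, 0.832, 0.441, and 1.40 CPM in VPM (log2FC 2.81, adjusted p = 0.0297). The complement gene *C1qc* was at 2.302 to 12.2 in dLG and 0.280 to 2.40 CPM in VPM (log2FC 2.80, adjusted p = 0.0365). The receptor gene *Csf1r* was at 2.69 to 25.0 in dLG and 2.29 to 4.66 CPM in VPM (log2FC 2.303, adjusted p = 0.0393). The cathepsin gene *Ctss* was at 2.01 to 16.5 in dLG and 1.12 to 1.93 CPM in VPM (log2FC 2.43, adjusted p = 0.0403). An overlap with *Hmgxb3* covers 15.1% of the exonic length of *Csf1r*. DESeq2 called 10 of the list and limma-voom 0. In edgeR the count was 10 without dLG c, 1 without VPM a or c, and 2 without VPM d, and each of these 4 calls was lost without 1 or more of VPM a, c, and d (adjusted p up to 0.139).

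The other cell types gave few calls. Of 9 tested endothelial and mural genes only the transporter *Slco1c1* passed, higher in VPM (148 to 212 in dLG and 242 to 311 CPM in VPM, log2FC -0.64, adjusted p = 0.0337). Astrocytes express it too. It was the only 1 of the 9 with a negative log2FC, while 8 were positive and did not pass, with a median of 1.15 over the list. Of 5 tested genes of meningeal fibroblasts and 4 of ependyma none passed in edgeR, DESeq2, or limma-voom and 0 had an unadjusted p under 0.05 in edgeR. These lists summed to at most 23.7 and 11.2 CPM in any library. *Ttr*, the defining gene of choroid plexus, had no count in any of the 9 libraries. From that list, *Otx2*, also a patterning factor of the thalamus and midbrain, was higher in dLG (65.0 to 105 in dLG and 34.8 to 56.5 CPM in VPM, log2FC 0.87, adjusted p = 0.0342), a call lost without VPM a, c, or d (adjusted p up to 0.131). The call of *Slco1c1* was lost without VPM c or d (adjusted p up to 0.128). Among other abundant members of these lists, the pericyte gene *Rgs5* was at 0 to 22.3 in dLG and 0.666 to 5.00 CPM in VPM. The collagen gene *Col1a2* was at 8.93 to 14.9 in dLG and 11.9 to 17 CPM in VPM. *Dcn*, of the matrix of fibroblasts, was at 0.0478 to 4.32 in dLG and 0.140 to 1.06 CPM in VPM. The choroid plexus gene *Sostdc1* was at 3.02 to 11.7 in dLG and 4.67 to 6.86 CPM in VPM. The ependymal genes *Rarres2* and *Foxj1*, the latter a factor of motile cilia, were at 1.91 to 5.34 in dLG and 2.24 to 3.61 CPM in VPM and at 0.287 to 4.32 in dLG and 0.747 to 3.28 CPM in VPM. None of these 6 was called.

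**Figure D2:**
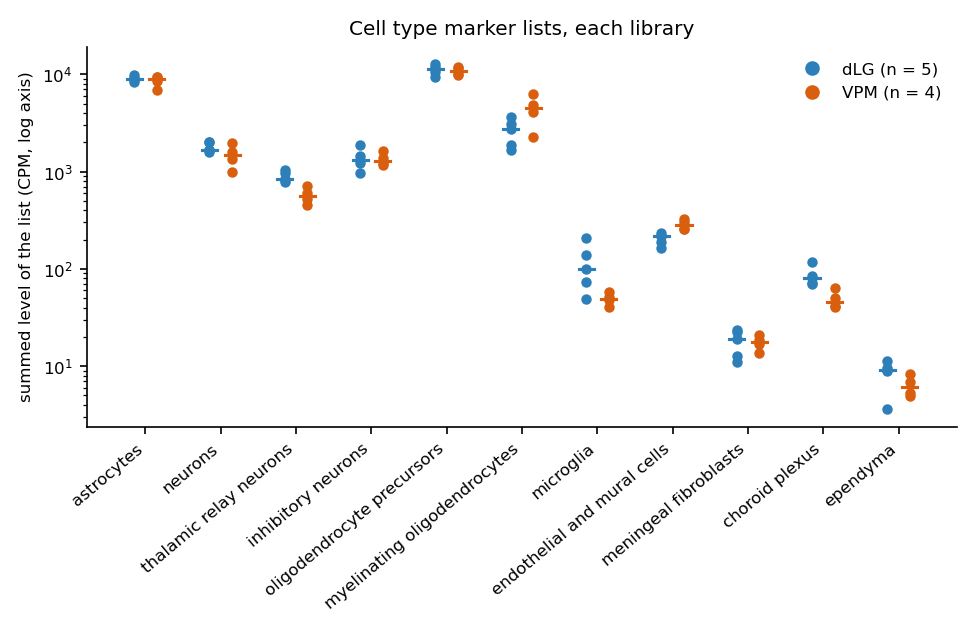
Summed CPM of each cell type marker list on a log axis, one point per library (dLG blue, VPM orange) and a bar at the median of each group. Astrocyte and oligodendrocyte precursor markers lie near the top in both groups, myelinating markers are highest in 3 VPM libraries, and the microglial sum reaches 209 CPM in dLG against at most 57.5 CPM in VPM.

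The gene with the lowest p was *Sp9* (chr2:73271925-73284706, GRCm38, as all positions here), a zinc finger transcription factor of the developing forebrain. It was at 42.7, 81.8, 75.6, 55.8, and 42.4 CPM in dLG libraries a to e and 0.653, 0, 0.637, and 0.433 CPM in VPM libraries a to d. Every dLG library thus held *Sp9* well above 10 CPM, while no VPM library reached 1 CPM and VPM b had no count. The means were 59.7 ± 18.3 CPM in dLG (SD, n = 5) and 0.431 ± 0.304 CPM in VPM (SD, n = 4) (log2FC 7.06, SE 0.50, adjusted p = 9.87e-05), and the log2FC within the series was 6.84 and 7.10. *Slc13a3* (chr2:165405028-165473230), a sodium-coupled transporter of dicarboxylates such as succinate, had the lowest p among genes higher in VPM. It was at 33.1, 36.5, 36.9, 31.6, and 33.8 CPM in dLG libraries a to e and 105, 139.7, 179.9, and 144 CPM in VPM libraries a to d, so that the lowest VPM library held more than every dLG library by a wide margin. The means were 34.4 ± 2.28 CPM in dLG (SD, n = 5) and 142 ± 30.5 CPM in VPM (SD, n = 4) (log2FC -2.05, SE 0.15, adjusted p = 9.87e-05), and the log2FC within the series was -2.22 and -1.93.

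The promoters of these leading genes of either direction are shown as the 250 bases before the start site (RefSeq, GRCm38.p6), with CG dinucleotides, the sites of DNA methylation, in capitals. That of *Sp9* (chr2:73271676-73271925, plus strand) holds 18 of them and that of *Slc13a3* (chr2:165473198-165473447, minus strand) 14, against a median of 15 over promoters of the genes tested.
*Sp9*: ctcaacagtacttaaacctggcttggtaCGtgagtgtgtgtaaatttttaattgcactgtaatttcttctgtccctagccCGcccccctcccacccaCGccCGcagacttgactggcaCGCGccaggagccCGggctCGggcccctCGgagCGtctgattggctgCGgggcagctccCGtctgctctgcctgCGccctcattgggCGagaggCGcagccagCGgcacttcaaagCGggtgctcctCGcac
*Slc13a3*: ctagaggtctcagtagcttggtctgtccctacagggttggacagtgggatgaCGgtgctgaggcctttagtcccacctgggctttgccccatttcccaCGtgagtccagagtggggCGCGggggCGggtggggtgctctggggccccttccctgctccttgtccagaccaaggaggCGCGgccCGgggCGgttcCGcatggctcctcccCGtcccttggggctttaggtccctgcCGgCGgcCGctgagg
Over all genes the median number was 15 in promoters of genes higher in dLG and 14 in those of genes higher in VPM.

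Of the 12 leading genes higher in dLG, 5 encode matrix, secreted, or cytoskeletal proteins. *Tnc* (chr4:63959785-64047015), which encodes the matrix glycoprotein tenascin-C, was at 224, 226, 210.0, 184, and 273 in dLG and 32.0, 55.5, 41.7, and 34.7 CPM in VPM (log2FC 2.45, SE 0.19, adjusted p = 9.87e-05). *Vim* (chr2:13573927-13582826), the intermediate filament vimentin of immature and reactive astrocytes, was at 309, 302, 339, 300.4, and 376 in dLG and 90.7, 136, 95.4, and 87.3 CPM in VPM (log2FC 1.67, SE 0.15, adjusted p = 0.000356). *Plec*, the filament crosslinker plectin, was at 51.97, 56.3, 90.1, 44.0, and 57.3 in dLG and 9.90, 10.3, 8.72, and 13.3 CPM in VPM (log2FC 2.50, adjusted p = 0.000356), highest in dLG c. *Fbln2*, the matrix protein fibulin-2, was at 17.4 to 30.5 in dLG and 2.98 to 4.99 CPM in VPM (log2FC 2.57, adjusted p = 0.000356). *Islr*, a secreted leucine-rich repeat protein, was at 67.6 to 86.3 in dLG and 22.1 to 35.4 CPM in VPM (log2FC 1.49, adjusted p = 0.000631). In each of these genes the lowest dLG library lay above the highest VPM library, as the rule for leading genes requires.

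The other leading genes higher in dLG had varied roles. *Calb2* (chr8:110137502-110168210), the calcium-binding protein calretinin, was at 85.4, 70.2, 122, 57.7, and 61.3 in dLG and 8.45, 6.10, 9.99, and 8.76 CPM in VPM (log2FC 3.25, SE 0.26, adjusted p = 0.000108). It is also a marker of some thalamic neurons, and the only 1 of the 24 leading genes that a marker list of another cell type holds. These lists are short, and absence from them does not tell which cells a transcript came from. *Lhx9*, a LIM homeodomain factor of thalamic progenitors and neurons, was at 24.0, 33.0, 27.5, 20.02, and 17.8 in dLG and 2.89, 0.943, 1.47, and 2.26 CPM in VPM (log2FC 3.68, adjusted p = 0.000356). *Rxrg*, a retinoid X receptor, was even within each group, at 96.8, 81.5, 89.2, 88.4, and 90.1 in dLG and 29.3, 36.7, 39.3, and 28.6 CPM in VPM (log2FC 1.41, adjusted p = 0.000356). *Igsf3*, an immunoglobulin superfamily protein, was at 23.3 to 42.0 in dLG and 5.88 to 8.38 CPM in VPM (log2FC 2.29, adjusted p = 0.000356). *St6galnac5*, a sialyltransferase of gangliosides, was at 14.6 to 20.9 in dLG and 2.94 to 4.67 CPM in VPM (log2FC 2.36, adjusted p = 0.000356). *Rgs8*, a regulator of G protein signaling, was at 16.5 to 34.9 in dLG and 1.33 to 3.17 CPM in VPM (log2FC 3.47, adjusted p = 0.000356).

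Among the genes leading in VPM were those of receptors, secreted proteins, and channels. *Adra2a* (chr19:54044151-54048982), the alpha-2A adrenergic receptor, was at 25.4, 31.6, 24.1, 24.3, and 25.9 in dLG and 86.5, 101, 138, and 101 CPM in VPM (log2FC -2.02, SE 0.16, adjusted p = 9.87e-05). *F3*, tissue factor, which starts coagulation and is abundant in astrocytes, was at 192, 219, 239, 238, and 157 in dLG and 496, 575, 689, and 622 CPM in VPM (log2FC -1.51, adjusted p = 0.000426). *Htra1*, a secreted serine protease, was at 210.1, 285, 361, 242, and 244 in dLG and 723, 759, 1049, and 948 CPM in VPM (log2FC -1.70, adjusted p = 0.000564). In all 3 the groups lay far apart, with VPM a the lowest of its group. *Il33* (chr19:29925114-29960718), an alarmin cytokine through which astrocytes promote microglial engulfment of synapses, was at 48.4, 42.1, 32.9, 53.5, and 30.5 in dLG and 93.0, 134, 126, and 115 CPM in VPM (log2FC -1.496, adjusted p = 0.00163). *Hapln1*, the link protein of hyaluronan and proteoglycans, was at 15.6, 13.2, 9.55, 15.9, and 18.6 in dLG and 41.4, 44.3, 52.5, and 39.97 CPM in VPM (log2FC -1.61, adjusted p = 0.00163). *Apln*, the peptide apelin, was at 11.6 to 22.1 in dLG and 38.9 to 52.8 CPM in VPM (log2FC -1.61, adjusted p = 0.00318).

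*Gjb6*, which encodes connexin 30, the gap junction protein of mature astrocytes, was at 64.9, 79.2, 85.8, 81.1, and 74.8 in dLG and 120.4, 151, 161, and 188 CPM in VPM (log2FC -1.01, SE 0.14, adjusted p = 0.004). *Kcnn2*, a calcium-activated potassium channel, was at 46.3 to 70.6 in dLG and 103 to 149 CPM in VPM (log2FC -1.19, adjusted p = 0.00325). *Csrp1*, a LIM domain protein, was at 51.4 to 64.9 in dLG and 92.0 to 127 CPM in VPM (log2FC -1.02, adjusted p = 0.00219). *Amz1*, a metalloproteinase, had the smallest log2FC of the 24 leading genes (64.8 to 69.9 in dLG and 106 to 141 CPM in VPM, log2FC -0.86, adjusted p = 0.00258). *Smim3*, a small membrane protein, was at 5.75 to 9.84 in dLG and 19.8 to 29.3 CPM in VPM (log2FC -1.68, adjusted p = 0.0027). All 24 leading genes kept their calls when each library was left out in turn, and with either marker level as a covariate.

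**Figure D3:**
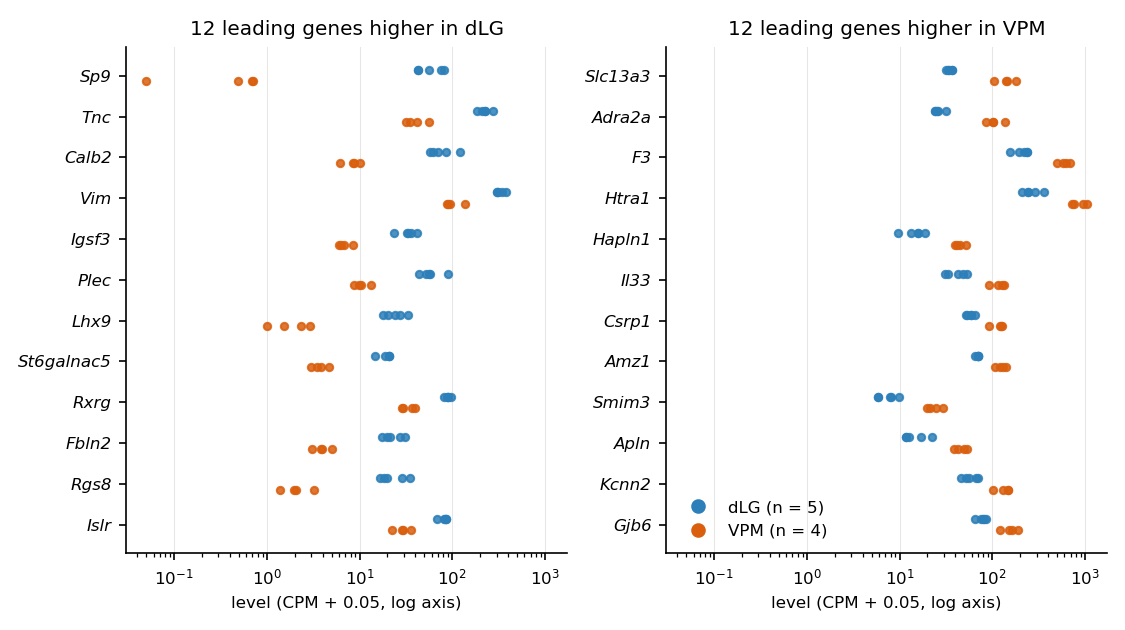
Levels of the 12 genes with the lowest p in each direction whose groups do not overlap, as CPM + 0.05 on a log axis, one point per library (dLG blue, VPM orange). In every gene the groups are apart, which the choice of genes requires, and *Sp9* has the widest gap, with VPM libraries at 0 to 0.653 CPM.

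Transcription factors that pattern the forebrain gave 19 of 39 tested genes higher in dLG (48.7%, against 6.48% over all genes). In VPM 1 was higher (2.56%, against 2.44%), with a median log2FC of 0.82. The calls numbered 8 (without VPM a) to 20 (without VPM b) in dLG and 0 to 1 in VPM when 1 library was left out. For 17 of the 19 the groups did not overlap, as for 715 of all 1058 genes higher in dLG. Beside *Sp9* and *Lhx9*, a neighbouring pair of Zic genes on chromosome 9 was among them. *Zic4* was at 32.0, 35.8, 51.7, 27.2, and 23.6 in dLG and 6.12, 8.71, 6.66, and 8.62 CPM in VPM (log2FC 2.18, SE 0.25, adjusted p = 0.00123). *Zic1* was at 47.8, 58.9, 94.7, 34.3, and 85.6 in dLG and 13.96, 23.5, 20.7, and 18.2 CPM in VPM (log2FC 1.75, SE 0.29, adjusted p = 0.0115). Both encode zinc finger factors. In RefSeq their start sites lie head to head, 3204 bases apart, while their Ensembl gene models overlap on opposite strands. *Id4*, an inhibitor of basic helix-loop-helix factors, was at 299, 253, 224, 284, and 222 in dLG and 71.7, 114, 73.5, and 72.0 CPM in VPM (log2FC 1.63, SE 0.17, adjusted p = 0.000689). *Ebf1* was at 11.2, 16.4, 32.5, 6.86, and 8.26 in dLG and 2.66, 0.666, 3.92, and 1.01 CPM in VPM (log2FC 2.86, adjusted p = 0.0319), and its call was lost without VPM a or d (adjusted p up to 0.107). The only factor higher in VPM was *Nkx2-2*, known in the oligodendrocyte lineage (92.3 to 142 in dLG and 134 to 221 CPM in VPM, log2FC -0.56, adjusted p = 0.0879), a call lost without 1 of dLG b, c, or e or VPM a, c, or d (adjusted p up to 0.267).

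The study named 11 genes for the dLG or the VPM, partly from these libraries, so their counts are no independent evidence of a direction. Of these, 4 were higher in dLG (*Sp9*, *Zic1*, *Ebf1*, and *Wnt3*) and 2 in VPM. Among the latter, *Tuba8*, an alpha-tubulin, was at 3.26, 4.89, 3.58, 2.45, and 3.08 in dLG and 11.8, 3.72, 8.53, and 24.1 CPM in VPM (log2FC -1.80, adjusted p = 0.0506). Here VPM b lay within the dLG range, 16.3% of its exonic length overlaps *Gm15856*, and the call was lost without VPM a, c, or d (adjusted p up to 0.188). With the oligodendrocyte level as a covariate, *Zic1*, *Ebf1*, and *Tuba8* did not pass, at adjusted p = 0.166, 0.52, and 0.585. Without that covariate, 5 of the 11 did not pass. *Hs6st2*, a heparan sulfate 6-O-sulfotransferase, was at 18.6 to 67.2 in dLG and 17.2 to 31.2 CPM in VPM (log2FC 0.84, adjusted p = 0.197). *Cck*, the peptide cholecystokinin, was at 117 to 264 in dLG and 58.6 to 213 CPM in VPM (log2FC 0.75, adjusted p = 0.233). The study names *Hs6st2* for the dLG and *Cck* for the VPM, in neurons induced from astrocytes. The log2FC of *Cck* here thus had the opposite sign, without passing. The study also mentions induced genes whose levels did not differ between nuclei before reprogramming. *Fgf12*, an intracellular FGF homolog, was at 39.5 to 57.8 in dLG and 56.8 to 78.0 CPM in VPM (log2FC -0.44, adjusted p = 0.109). *Homer2*, a postsynaptic scaffold, was at 22.7 to 40.7 in dLG and 33.7 to 50.5 CPM in VPM (log2FC -0.41, adjusted p = 0.247). The proto-oncogene *Myc* was at 81.6 to 144 in dLG and 122 to 149 CPM in VPM (log2FC -0.19, adjusted p = 0.516).

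Wnt pathway genes were higher in dLG for 16 of 39 tested (41.0%, against 6.48% over all genes). In VPM 1 was higher (2.56%, against 2.44%), with a median log2FC of 0.55 over the list. When 1 library was left out, these counts were 7 (without VPM d) to 18 (without dLG d) in dLG and 0 to 1 in VPM. In this pathway, secreted Wnt ligands stabilize beta-catenin, which acts with TCF and LEF factors on target genes, many of them feedback inhibitors. The ligand *Wnt3* was at 52.7, 58.5, 71.8, 47.4, and 72.7 in dLG and 27.7, 29.2, 28.7, and 24.5 CPM in VPM (log2FC 1.14, SE 0.16, adjusted p = 0.00406). The transcription factor *Lef1* was at 44.7, 58.5, 43.1, 59.2, and 50.8 in dLG and 19.98, 9.82, 10.3, and 20.6 CPM in VPM (log2FC 1.75, SE 0.25, adjusted p = 0.00449), and 13.7% of its exonic length overlaps *Gm43352*. Its relative *Tcf7l2*, an identity factor of thalamic relay neurons that astrocytes express too, was at 288, 347, 439, 326, and 320.0 in dLG and 250.2, 189, 231, and 220.3 CPM in VPM (log2FC 0.63, adjusted p = 0.0374). The target and feedback inhibitor *Nkd1* was at 122, 167, 233, 166, and 141 in dLG and 55.6, 60.1, 59.9, and 61.0 CPM in VPM (log2FC 1.49, SE 0.17, adjusted p = 0.00126). The target *Sp5* was at 18.0, 27.8, 43.0, 24.7, and 17.9 in dLG and 5.70, 5.77, 2.40, and 5.54 CPM in VPM (log2FC 2.44, adjusted p = 0.00406). *Dkk3*, a secreted protein of the Dickkopf family, was at 65.4 to 107 in dLG and 34.5 to 40.9 CPM in VPM (log2FC 1.20, adjusted p = 0.00399). In each of these 6 genes every dLG library lay above every VPM library. The secreted antagonist *Sfrp1* was the 1 gene higher in VPM (12.1 to 22.9 in dLG and 19.8 to 32.8 CPM in VPM, log2FC -0.79, adjusted p = 0.079). Its call was lost without 1 of dLG a, b, or e or VPM a, c, or d (adjusted p up to 0.238). That of *Tcf7l2* was lost without VPM c or d (adjusted p up to 0.125).

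Promoters are shown with CTTTGA, the core letters of a TCF and LEF motif, or their reverse complement in capitals. They are those of the called Wnt genes that hold the letters on either strand in the 250 bases before the start site. These were *Lef1* (chr3:131156044-131156293, plus strand, at 180 and 120 bases before the start) and *Sp5* (chr2:70474673-70474922, plus strand, at 204 and 104 bases before the start).
*Lef1*: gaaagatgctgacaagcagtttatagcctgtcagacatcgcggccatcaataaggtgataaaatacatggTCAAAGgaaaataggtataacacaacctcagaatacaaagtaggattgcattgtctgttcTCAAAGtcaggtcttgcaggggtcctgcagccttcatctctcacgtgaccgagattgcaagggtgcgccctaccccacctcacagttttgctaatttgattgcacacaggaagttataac
*Sp5*: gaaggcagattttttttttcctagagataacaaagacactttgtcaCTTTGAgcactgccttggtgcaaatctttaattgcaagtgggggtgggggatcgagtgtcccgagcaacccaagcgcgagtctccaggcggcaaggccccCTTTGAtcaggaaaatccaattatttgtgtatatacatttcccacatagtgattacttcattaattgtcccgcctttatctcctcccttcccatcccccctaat
The start used for *Lef1* is 1 of 4 in the table and lies inside the gene, downstream of its first exon. Counting a gene when any of its listed promoters holds the letters, these are 2 of the 11 Wnt genes higher in dLG with a promoter in the table, against 2 of 14 that did not pass and 15.8% of all genes in the table. Of all 32851 promoters, 13.8% hold them.

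In the Notch pathway a cleaved receptor acts with RBPJ on Hes and Hey genes, and it is known to keep glia immature. It was higher in dLG for 6 of 22 tested genes (27.3%, against 6.48% over all genes). In VPM 1 was higher (4.5%, against 2.44%), with a median log2FC of 0.52. Without 1 of the libraries, the counts were 1 (without VPM a, c, or d) to 7 (without dLG c or d) in dLG and 0 to 1 in VPM. *Hes5*, the effector abundant in radial glia and astrocytes, was at 698, 754, 764, 485, and 818 CPM in dLG libraries a to e and 203, 385, 155, and 156 CPM in VPM libraries a to d (log2FC 1.65, SE 0.27, adjusted p = 0.0112). VPM b lay highest in its group, still under the lowest dLG library, and 31.8% of the exonic length overlaps *Gm20421*. *Hey2* was at 43.0, 30.3, 33.7, 39.7, and 45.6 in dLG and 14.6, 28.6, 13.8, and 15.3 CPM in VPM (log2FC 1.09, SE 0.24, adjusted p = 0.0352), again with VPM b nearest to dLG. The receptor *Notch3* was at 26.8 to 99.1 in dLG and 13.96 to 33.3 CPM in VPM (log2FC 1.48, adjusted p = 0.0492). *Notch2*, another receptor, was at 10.5 to 30.5 in dLG and 4.71 to 11.4 CPM in VPM (log2FC 1.40, adjusted p = 0.0642), and both overlapped between the groups. The ligand *Dll3*, a marker of committed precursors, was higher in VPM (122 to 157 in dLG and 149 to 212 CPM in VPM, log2FC -0.47, adjusted p = 0.0727). All these calls except that of *Hes5* were lost without VPM a, c, or d, and those of *Notch2*, *Notch3*, and *Dll3* also without dLG b (adjusted p up to 0.229).

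The letters GTGGGAA, a core of the RBPJ motif, occur on either strand of the promoters of *Hes5* (chr4:154960673-154960922, plus strand, at 226 and 83 bases before the start) and *Hey2* (chr10:30842784-30843033, minus strand, at 207 bases before the start). These promoters are shown with those letters or their reverse complement in capitals because both genes encode Notch effectors.
*Hes5*: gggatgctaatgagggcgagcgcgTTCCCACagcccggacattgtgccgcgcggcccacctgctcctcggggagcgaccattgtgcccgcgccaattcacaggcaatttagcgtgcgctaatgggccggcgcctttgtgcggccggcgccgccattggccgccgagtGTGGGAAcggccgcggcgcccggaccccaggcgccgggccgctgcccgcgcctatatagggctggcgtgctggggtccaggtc
*Hey2*: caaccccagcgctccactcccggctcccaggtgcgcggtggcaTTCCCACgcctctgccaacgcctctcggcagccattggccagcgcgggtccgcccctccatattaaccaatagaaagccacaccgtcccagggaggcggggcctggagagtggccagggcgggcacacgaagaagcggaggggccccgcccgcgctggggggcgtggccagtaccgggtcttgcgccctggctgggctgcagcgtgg
They are 2 of the 6 Notch genes higher in dLG, against 1 of 11 with a promoter that did not pass and 6.18% of all genes in the table, or 5.42% of all promoters. The match is a description of the letters and says nothing on binding.

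In the Sonic hedgehog pathway 4 of 16 genes were higher in dLG (25.0%, against 6.48% over all genes) and none in VPM, with a median log2FC of 0.70. After omission of 1 library, the calls numbered 2 (without dLG b or e or VPM a, c, or d) to 5 (without dLG a or d) in dLG and 0 to 1 in VPM. With all 9 libraries, limma-voom called 2 in dLG. *Gli1*, its transcriptional effector and target, was at 4.89, 9.59, 3.44, 4.25, and 11.8 in dLG and 0.934, 0.444, 1.18, and 0.819 CPM in VPM (log2FC 3.00, SE 0.51, adjusted p = 0.012). The receptor *Ptch1* was at 53.0 to 213 in dLG and 35.3 to 65.7 CPM in VPM (log2FC 1.20, adjusted p = 0.0834). The inhibitor *Sufu* was at 30.6 to 57.6 in dLG and 23.2 to 29.5 CPM in VPM (log2FC 0.60, adjusted p = 0.0981). Every VPM library held at most 1.18 CPM of *Gli1*, which kept its call without any 1 library. Those of *Ptch1* and *Sufu* were lost without dLG b or e or VPM a, c, or d (adjusted p up to 0.236). In the BMP and TGF-beta pathway 6 of 32 were higher in dLG (18.75%, against 6.48% over all genes). In VPM 1 was higher (3.1%, near the 2.44% over all genes), with a median log2FC of 0.41. With 1 library left out, the calls numbered 2 (without VPM a, c, or d) to 8 (without dLG d) in dLG and 0 to 2 in VPM. Over all 9, DESeq2 called 11 in dLG. Among the genes higher in dLG, the BMP target *Id1* was at 84.7 to 118 in dLG and 38.4 to 76.6 CPM in VPM (log2FC 1.07, adjusted p = 0.0248). *Id3*, also a BMP target, was at 1330 to 2175 in dLG and 703 to 1236 CPM in VPM (log2FC 0.95, adjusted p = 0.0302). The inhibitory *Smad7* was at 22.9 to 42.4 in dLG and 14.8 to 17.9 CPM in VPM (log2FC 0.89, adjusted p = 0.0426). The ligand *Bmp7* was higher in VPM (72.5 to 102 in dLG and 98.8 to 143 CPM in VPM, log2FC -0.48, adjusted p = 0.0861). The calls of *Id3*, *Smad7*, and *Bmp7* were lost without VPM a, c, or d, and that of *Bmp7* also without dLG a, b, c, or e (adjusted p up to 0.255).

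Of 38 genes of the FGF pathway and of heparan sulfate enzymes, 3 were higher in dLG (7.89%) and 1 in VPM (2.63%), shares near those over all genes, with a median log2FC of 0.29. Leaving out 1 library gave 1 (without VPM a) to 9 (without dLG d) in dLG and 0 to 4 in VPM. With all 9 libraries, DESeq2 called 10 in dLG. *Fgfbp3*, which releases FGF ligands from the matrix, was at 69.8, 57.4, 73.4, 61.7, and 48.0 in dLG and 22.3, 24.0, 23.2, and 19.9 CPM in VPM (log2FC 1.47, SE 0.16, adjusted p = 0.000664), with a wide gap between the groups. The receptor *Fgfr1* was at 113 to 175 in dLG and 74.9 to 98.6 CPM in VPM (log2FC 0.79, adjusted p = 0.0243). *Fgfr2*, the other receptor, was at 76.3 to 121 in dLG and 52.3 to 67.8 CPM in VPM (log2FC 0.60, adjusted p = 0.0533). The sulfatase *Sulf2* was higher in VPM (375 to 523 in dLG and 441 to 777 CPM in VPM, log2FC -0.58, adjusted p = 0.0784). Of the 14 tested genes of retinoic acid signaling, 3 were higher in dLG (21.4%, against 6.48% over all genes). In VPM 1 was higher (7.14%, against 2.44%), with a median log2FC of 0.27. The calls numbered 1 (without dLG b or e or VPM a, c, or d) to 4 (without dLG d) in dLG and 0 to 1 in VPM when 1 library was left out. Those higher in dLG were *Rxrg*, the receptor *Rara*, and the reductase *Dhrs3*. *Rara* was at 19.7 to 27.2 in dLG and 15.6 to 17.2 CPM in VPM (log2FC 0.58, adjusted p = 0.0787). *Dhrs3* was at 22.1 to 37.9 in dLG and 13.9 to 22.5 CPM in VPM (log2FC 0.68, adjusted p = 0.0879). The synthesizing enzyme *Aldh1a1* was higher in VPM, at 14.1, 6.95, 0, 8.91, and 4.72 in dLG and 22.9, 42.8, 36.7, and 34.6 CPM in VPM (log2FC -2.305, adjusted p = 0.0994). DESeq2 did not call *Aldh1a1*, with or without apeglm, and its log2FC ranged from -3.76 to -0.145 over the settings run. All of these calls but those of *Fgfbp3* and *Rxrg* were lost without VPM a, and most without VPM b, c, or d or dLG b (adjusted p up to 0.25).

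Among 12 tested genes of thyroid hormone transport and response, 1 was higher in dLG (8.33%, against 6.48% over all genes). In VPM 2 were higher (16.7%, against 2.44%), with a median log2FC of 0.03. When 1 library was left out, these counts were 0 to 1 in dLG and 1 to 4 in VPM. *Dio2* (chr12:90724552-90738438), the deiodinase by which astrocytes make active thyroid hormone for neurons, was at 4.46, 4.60, 10.2, 7.76, and 6.003 CPM in dLG libraries a to e and 16.2, 28.1, 22.5, and 25.8 CPM in VPM libraries a to d. The lowest VPM library thus lay above the highest dLG library (log2FC -1.81, SE 0.28, adjusted p = 0.00739), and the log2FC within the series was -2.42 and -1.71. *Slco1c1*, which carries thyroxine, was the other gene higher in VPM.

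Intermediate filament and reactive astrocyte genes were higher in dLG for 8 of 17 tested (47.1%, against 6.48% over all genes). None was higher in VPM, and the median log2FC was 0.97. Without 1 of the libraries, the counts were 3 (without VPM a or c) to 8 (without dLG c) in dLG and 0 to 1 in VPM. The groups did not overlap for 7 of the 8, as for 715 of all 1058 genes higher in dLG. *Gfap* (chr11:102887336-102900912), the astrocytic filament gene whose promoter drives the reporter used for the sort, was at 1341, 98.7, 79.1, 971, and 222 CPM in dLG libraries a to e and 8.78, 19.1, 11.5, and 9.15 CPM in VPM libraries a to d. It was thus uneven within dLG, highest in a and d, and at most 19.1 CPM in VPM (log2FC 5.48, SE 0.92, adjusted p = 0.0115). *Socs3*, an inhibitor of cytokine signaling through STAT3, was at 214, 67.0, 129, 119.5, and 90.7 in dLG and 22.6, 39.4, 10.7, and 10.2 CPM in VPM (log2FC 2.58, SE 0.45, adjusted p = 0.014), highest in dLG a. *S1pr3*, a receptor of sphingosine 1-phosphate, was at 4.87 to 14.1 in dLG and 2.52 to 4.16 CPM in VPM (log2FC 1.63, adjusted p = 0.0308). Its call was lost without VPM a or c (adjusted p up to 0.111). dLG a and d were also the libraries with the highest microglial sums, 209 and 137 CPM. In dLG b and c these sums were 49.0 and 73.8 CPM and *Gfap* was at 98.7 and 79.1 CPM. The part of microglia in these differences was not tested.

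Immediate early and stress genes respond within minutes to stimulation and to tissue dissociation. They were higher in dLG for 12 of 35 tested (34.3%, against 6.48% over all genes). In VPM 1 was higher (2.86%, against 2.44%), with a median log2FC of 1.11. After omission of 1 library, the calls numbered 3 (without VPM a) to 17 (without dLG d or VPM b) in dLG and 0 to 2 in VPM. With all 9 libraries, DESeq2 called 19 in dLG. *Egr2* was at 62.7, 34.4, 38.5, 56.0, and 37.1 in dLG and 5.74, 19.4, 3.53, and 6.26 CPM in VPM (log2FC 2.39, SE 0.44, adjusted p = 0.0205). The RNA-binding repressor *Zfp36* was at 78.4, 44.9, 83.8, 41.6, and 49.4 in dLG and 10.6, 22.2, 4.65, and 6.36 CPM in VPM (log2FC 2.45, SE 0.43, adjusted p = 0.0151). *Btg2*, an antiproliferative early gene, was at 95.7 to 157 in dLG and 25.6 to 69.3 CPM in VPM (log2FC 1.52, adjusted p = 0.0274). *Junb*, a subunit of AP-1, was at 169 to 350.3 in dLG and 45.9 to 155 CPM in VPM (log2FC 1.61, adjusted p = 0.03). In *Egr2*, *Zfp36*, and *Junb* VPM b was the highest VPM library and lay nearest to dLG. Summed over the list, VPM b held 5583 CPM against 3294 to 4345 CPM in the other VPM libraries and 5568 to 7114 CPM in dLG. *Sgk1*, a kinase induced by glucocorticoids, was higher in VPM (161 to 349.9 in dLG and 262 to 531 CPM in VPM, log2FC -0.85, adjusted p = 0.0787). The calls of *Junb* and *Sgk1* were lost without VPM a, that of *Sgk1* also without VPM c or d or dLG b, c, or e (adjusted p = 0.102 and up to 0.233). VPM b also had the highest share of mitochondrial counts in its group, and the part of sample quality in these values was not tested.

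**Figure D4:**
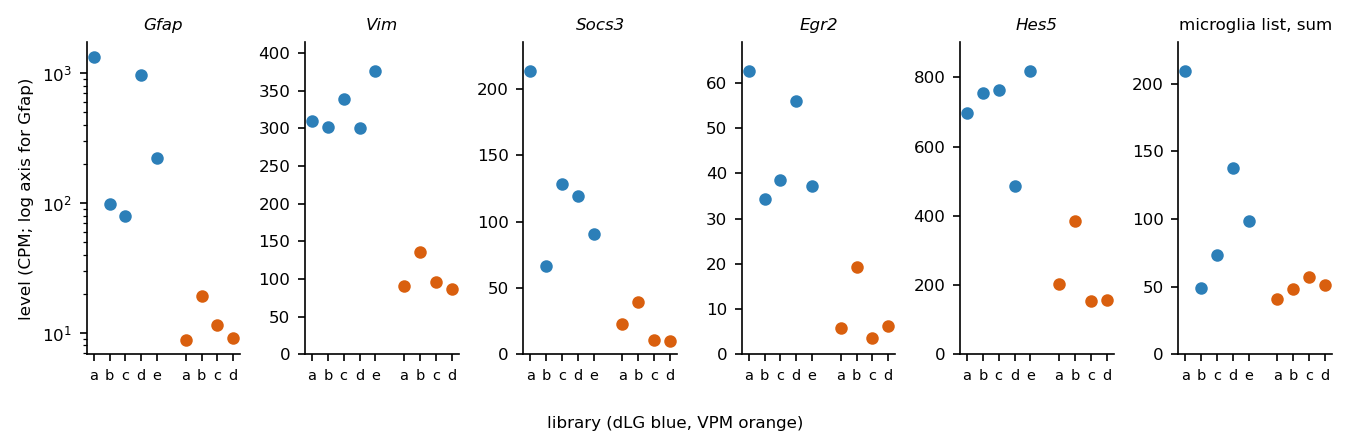
Levels of *Gfap* (log axis), *Vim*, *Socs3*, *Egr2*, and *Hes5* in CPM and the summed CPM of the microglial marker list, one point per library, with dLG a to e in blue and VPM a to d in orange. *Gfap* ranges from 79.1 to 1341 CPM across dLG and reaches at most 19.1 CPM in VPM, and VPM b is the highest VPM library in all 5 genes.

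Extracellular matrix genes moved both ways, with 13 of 35 tested higher in dLG (37.1%, against 6.48% over all genes). In VPM 4 were higher (11.4%, against 2.44%), with a median log2FC of 0.47. With 1 library left out, the calls numbered 3 (without VPM a) to 16 (without dLG d) in dLG and 1 (without VPM c) to 4 (without dLG a, c, d, or e or VPM b) in VPM. Over all 9, limma-voom called 8 in dLG. Beside *Tnc*, the dLG had more of the basement membrane gene *Lama4*, at 18.9, 22.8, 17.1, 17.4, and 21.6 in dLG and 6.72, 6.71, 6.03, and 5.25 CPM in VPM (log2FC 1.66, SE 0.20, adjusted p = 0.00123). *Nid1*, of the basement membrane too, was at 141 to 274 in dLG and 49.0 to 87.6 CPM in VPM (log2FC 1.48, adjusted p = 0.0108). The proteoglycan *Ncan* was at 1543 to 2534 in dLG and 1080 to 1438 CPM in VPM (log2FC 0.68, adjusted p = 0.0443). The VPM had more of *Hapln1* and of *Timp4*, an inhibitor of metalloproteinases (189 to 289.6 in dLG and 356 to 436 CPM in VPM, log2FC -0.62, adjusted p = 0.0319). The matrilin *Matn2* was at 9.40 to 22.5 in dLG and 22.1 to 40.7 CPM in VPM (log2FC -1.24, adjusted p = 0.0325). *Matn4*, another matrilin, was at 275 to 404 in dLG and 392 to 599 CPM in VPM (log2FC -0.62, adjusted p = 0.0506). The calls of *Ncan*, *Timp4*, *Matn2*, and *Matn4* were lost without VPM c, and except that of *Timp4* without VPM a or d (adjusted p up to 0.18).

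Axon guidance genes were higher in dLG for 17 of 54 tested (31.5%, against 6.48% over all genes). In VPM 1 was higher (1.85%, against 2.44%), with a median log2FC of 0.50. Leaving out 1 library gave 5 (without VPM a or c) to 21 (without dLG d) in dLG and 0 to 2 in VPM. The ephrin ligand *Efnb3* was at 57.2, 66.3, 64.2, 54.9, and 60.7 in dLG and 33.0, 31.8, 36.5, and 32.5 CPM in VPM (log2FC 0.86, SE 0.12, adjusted p = 0.0041). The ephrin receptor *Epha5*, known in retinotopic mapping, was at 66.5 to 86.8 in dLG and 41.2 to 51.9 CPM in VPM (log2FC 0.78, adjusted p = 0.0105). *Epha8*, a receptor of the same family, was at 4.06 to 10.1 in dLG and 0.388 to 1.88 CPM in VPM (log2FC 2.80, adjusted p = 0.0135). The semaphorin *Sema6a* was at 193 to 338 in dLG and 126 to 142 CPM in VPM (log2FC 0.86, adjusted p = 0.0189), and none of these overlapped. The secreted semaphorin *Sema3d* was higher in VPM (42.0, 24.3, 21.3, 23.9, and 14.5 in dLG and 54.1, 46.4, 63.4, and 50.2 CPM in VPM, log2FC -1.09, adjusted p = 0.0427). Its call was lost without dLG b or VPM a, c, or d (adjusted p up to 0.146).

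Among 37 tested genes of secreted and adhesion proteins that organize synapses, 6 were higher in dLG (16.2%, against 6.48% over all genes). In VPM 4 were higher (10.8%, against 2.44%), with a median log2FC of 0.06. The calls numbered 2 (without dLG b or e or VPM a or c) to 9 (without dLG d) in dLG and 2 (without VPM a, c, or d) to 6 (without dLG d) in VPM when 1 library was left out. Over all 9, limma-voom called 3 in dLG. The cytokine *Tgfb2* was at 54.2, 61.0, 60.2, 61.0, and 84.96 in dLG and 29.2, 30.4, 33.2, and 30.1 CPM in VPM (log2FC 1.06, SE 0.15, adjusted p = 0.00406). *Cbln4*, a cerebellin, was at 11.4, 18.2, 16.1, 14.7, and 2.98 in dLG and 2.05, 2.11, 2.35, and 2.89 CPM in VPM (log2FC 2.43, adjusted p = 0.0209), low in dLG e. *Nlgn2*, which bridges the cleft, was at 30.2 to 189 in dLG and 21.4 to 39.7 CPM in VPM (log2FC 1.66, adjusted p = 0.062). *Nrxn3*, which does so from the other side, was at 106 to 212 in dLG and 86.4 to 128 CPM in VPM (log2FC 0.73, adjusted p = 0.0683), and both overlapped. In VPM, *Il33* was joined by the glypican *Gpc5*, at 34.9, 42.6, 20.5, 45.9, and 28.0 in dLG and 77.7, 81.3, 82.9, and 87.5 CPM in VPM (log2FC -1.26, SE 0.21, adjusted p = 0.011). *Gpc4*, an astrocyte signal that recruits glutamate receptors, was at 18.8 to 33.0 in dLG and 32.9 to 46.6 CPM in VPM (log2FC -0.63, adjusted p = 0.0794). *C1ql1* was at 284 to 413 in dLG and 420.3 to 555 CPM in VPM (log2FC -0.55, adjusted p = 0.0479). The calls of *Nlgn2*, *Nrxn3*, *C1ql1*, and *Gpc4* were lost without VPM a or c and without others of the libraries (adjusted p up to 0.239).

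Of 25 tested genes of potassium buffering, gap junctions, and water channels, 6 were higher in VPM (24.0%, against 2.44% over all genes). In dLG 1 was higher (4.00%, against 6.48%), with a median log2FC of -0.12. When 1 library was left out, these counts were 0 to 2 in dLG and 2 (without VPM a, c, or d) to 7 (without dLG d) in VPM. Beside *Gjb6*, *Gja1*, and *Kcnn2*, these include the inward rectifier *Kcnj16*, at 42.1, 66.4, 63.8, 83.0, and 53.3 in dLG and 105, 91.8, 122, and 112 CPM in VPM (log2FC -0.80, SE 0.18, adjusted p = 0.0374). The leak channel *Kcnk1* was at 46.6 to 70.1 in dLG and 62.7 to 97.6 CPM in VPM (log2FC -0.65, adjusted p = 0.0531). *Slc12a5*, the potassium chloride cotransporter of neurons, was the 1 gene higher in dLG (29.7 to 56.9 in dLG and 8.10 to 26.1 CPM in VPM, log2FC 1.49, adjusted p = 0.0334). Of 21 genes of transmitter uptake and the glutamine cycle, 2 were higher in VPM (9.52%, against 2.44% over all genes). In dLG 1 was higher (4.76%, against 6.48%), with a median log2FC of 0.22. Without 1 of the libraries, the counts were 1 to 4 in dLG and 0 to 4 in VPM. The gene higher in dLG was *Gad2*. In VPM, *Slc7a10*, a carrier of D-serine and small amino acids, was at 221 to 369 in dLG and 365 to 522 CPM in VPM (log2FC -0.70, adjusted p = 0.0404). The glycine transporter *Slc6a9* was at 78.9 to 196 in dLG and 227 to 323 CPM in VPM (log2FC -0.74, adjusted p = 0.0967). Overlaps with *Lrp3* and *Ccdc24* cover 17.9% and 30.3% of the exonic lengths of these carriers. The calls of *Kcnj16*, *Kcnk1*, *Slc12a5*, *Slc7a10*, and *Slc6a9* were lost without VPM c, and without others of the VPM libraries or dLG b (adjusted p up to 0.266).

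Neuronal transcripts were present in both groups. The 12 general markers summed to 1584 to 2003 CPM in dLG and 985 to 1973 CPM in VPM. Of these, 1 of 12 was higher in dLG (8.33%, against 6.48% over all genes), with a median log2FC of 0.29 over the list. This was *Elavl3* (37.2 to 101 in dLG and 31.9 to 44.9 CPM in VPM, log2FC 0.85, adjusted p = 0.0823), a call lost without 1 of dLG b, c, or e or VPM a to d (adjusted p up to 0.213). *Map2* was at 289.7 to 406 in dLG and 274 to 328 CPM in VPM and *Stmn2* at 269.6 to 371 in dLG and 116 to 363 CPM in VPM, and neither passed. Of 10 markers of thalamic relay neurons, 5 were higher in dLG (50.0%, against 6.48% over all genes). None was higher in VPM, and the median log2FC was 0.81. After omission of 1 library, the calls numbered 2 (without VPM c) to 6 (without dLG d) in dLG. The 5 include *Calb2*, *Lef1*, and *Tcf7l2*, and *Ntng1*, an adhesion molecule of thalamocortical axons (67.2 to 105 in dLG and 21.7 to 61.7 CPM in VPM, log2FC 1.003, adjusted p = 0.0623). The last was lost without dLG b or VPM a, b, or c (adjusted p up to 0.199). The list summed to 780 to 1035 CPM in dLG against 451 to 715 CPM in VPM. *Rora*, abundant in relay neurons, did not pass at 163 to 222 in dLG and 159 to 242 CPM in VPM.

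Markers of inhibitory neurons had the largest median log2FC of all lists, at low levels. Of the 15 in the files 11 passed the filter on low counts. Of these, 7 were higher in dLG (63.6%, against 6.48% over all genes) and none in VPM, with a median of 3.05. With 1 library left out, the calls numbered 2 (without VPM c or d) to 7 (without dLG d) in dLG. Over all 9, limma-voom called 3 in dLG. *Sox14* (chr9:99874106-99876170), the transcription factor of thalamic interneurons, was at 1.39, 6.81, 11.4, 3.35, and 2.77 CPM in dLG libraries a to e and 0, 0, 0.0980, and 0 CPM in VPM libraries a to d. All VPM libraries together held 2 counts and the dLG libraries 530, a ratio of 209 scaled to library size with a 95% exact counting interval of 57.6 to 1732 (adjusted p = 0.00434). This interval and that of *Slc32a1* below pool the counts of each group. They cover counting error only and not the spread between pools of brains. *Gad2*, which makes GABA, was at 10.1, 9.11, 7.83, 5.91, and 1.64 in dLG and 0.467, 0.0555, 0.539, and 0.337 CPM in VPM (log2FC 4.27, SE 0.68, adjusted p = 0.00834). *Slc32a1*, the vesicular GABA transporter, was at 1.58, 2.64, 0.717, 0.901, and 1.33 in dLG and 0.0467, 0.166, 0, and 0 CPM in VPM, with 4 counts over VPM, a ratio of 29.0 and an interval of 11.1 to 108 (adjusted p = 0.033), and 24.9% of its exonic length overlaps *Gm14205*. *Gata3*, a factor of midbrain and thalamic GABA neurons, was at 0.851 to 4.25 in dLG and 0 to 0.277 CPM in VPM (log2FC 4.82, adjusted p = 0.0503). Members near 0 in VPM, such as *Sox14*, passed the filter only through the dLG libraries, so that the count and median of this list are a description. By contrast *Gad1*, which did not pass, was at 19.8 to 36.6 in dLG and 22.1 to 24.9 CPM in VPM. The calls of *Slc32a1* and *Gata3* were lost without VPM a, c, or d (adjusted p up to 0.162).

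Of 31 synaptic vesicle and release genes, 7 were higher in dLG (22.6%, against 6.48% over all genes). In VPM 2 were higher (6.45%, against 2.44%), with a median log2FC of 0.47. Leaving out 1 library gave 1 (without VPM c) to 10 (without dLG d) in dLG and 0 to 2 in VPM. With all 9 libraries, DESeq2 called 11 in dLG. *Sv2c*, a vesicle glycoprotein, was at 16.5, 16.4, 19.4, 9.16, and 13.9 in dLG and 4.34, 4.11, 5.00, and 5.10 CPM in VPM (log2FC 1.70, SE 0.26, adjusted p = 0.00567). The active zone gene *Rims2* was at 44.7 to 72.7 in dLG and 25.8 to 39.6 CPM in VPM (log2FC 0.88, adjusted p = 0.0279). *Bsn*, of the active zone, was at 6.71 to 25.2 in dLG and 3.82 to 6.54 CPM in VPM (log2FC 1.75, adjusted p = 0.0363). *Unc13a*, a priming factor, was at 15.9 to 45.1 in dLG and 9.36 to 15.9 CPM in VPM (log2FC 1.20, adjusted p = 0.0444). Higher in VPM, the complexin *Cplx1* was at 69.2 to 106 in dLG and 94.5 to 231 CPM in VPM (log2FC -0.96, adjusted p = 0.0449). The vesicular glutamate transporter *Slc17a7* was at 6.16 to 13.8 in dLG and 12.2 to 49.5 CPM in VPM (log2FC -1.36, adjusted p = 0.0683). Of 31 postsynaptic scaffold and glutamate receptor genes, 6 were higher in dLG (19.4%, against 6.48% over all genes). None was higher in VPM, and the median log2FC was 0.27. The calls numbered 0 (without VPM a or c) to 10 (without dLG d) in dLG and 0 to 1 in VPM when 1 library was left out. Over all 9, limma-voom called 3 in dLG. Of those higher in dLG, the NMDA receptor subunit *Grin2b* was at 12.6 to 48.1 in dLG and 10.3 to 12.04 CPM in VPM (log2FC 1.504, adjusted p = 0.03). The scaffold *Baiap2* was at 21.1 to 41.9 in dLG and 14.98 to 18.6 CPM in VPM (log2FC 0.88, adjusted p = 0.0473). The kinase *Camk2a* was at 4.36 to 8.27 in dLG and 1.55 to 3.66 CPM in VPM (log2FC 1.57, adjusted p = 0.0498). The kainate receptor subunit *Grik3* was at 24.6 to 73.7 in dLG and 17.4 to 27.3 CPM in VPM (log2FC 1.09, adjusted p = 0.0624). All of these calls but that of *Sv2c* were lost without VPM c, and most without VPM a (adjusted p up to 0.219). *Sv2c*, *Cplx1*, and *Slc17a7* passed with the neuronal marker level as a covariate, and the others named here did not (adjusted p = 0.143 to 0.247 in edgeR). None passed with the oligodendrocyte marker level (adjusted p = 0.136 to 0.639 in edgeR).

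Of 35 voltage-gated channel genes, 7 were higher in dLG and 1 in VPM, with a median log2FC of 0.66. When 1 library was left out, these counts were 1 (without VPM a, c, or d) to 15 (without dLG d) in dLG and 0 to 2 in VPM. With all 9 libraries, DESeq2 called 16 in dLG and limma-voom called 4 in dLG. The N-type calcium channel *Cacna1b* was at 15.3, 13.0, 30.3, 7.01, and 22.7 in dLG and 4.48, 3.77, 4.95, and 4.48 CPM in VPM (log2FC 2.00, SE 0.38, adjusted p = 0.0221). The potassium channel *Kcnd3* was at 43.0 to 123 in dLG and 34.0 to 39.4 CPM in VPM (log2FC 1.247, adjusted p = 0.0342). *Kcnq3*, of the M current, was at 17.1 to 67.3 in dLG and 11.7 to 16.8 CPM in VPM (log2FC 1.53, adjusted p = 0.0377). The calcium channel subunit *Cacna2d3* was higher in VPM (16.96 to 28.4 in dLG and 27.0 to 43.9 CPM in VPM, log2FC -0.70, adjusted p = 0.0742). Of 17 GABA and glycine receptor genes, 2 were higher in each nucleus, with a median log2FC of 0.07. This is 11.8% in each, against 6.48% for dLG and 2.44% for VPM over all genes. Without 1 of the libraries, the counts were 0 to 4 in dLG and 0 to 4 in VPM. *Gabra5*, a subunit of extrasynaptic receptors, was higher in dLG (8.31 to 27.0 in dLG and 2.55 to 8.17 CPM in VPM, log2FC 1.79, adjusted p = 0.0341). *Gabbr2*, of the GABA-B receptor, was also higher in dLG (183 to 442 in dLG and 106 to 160.5 CPM in VPM, log2FC 1.05, adjusted p = 0.0472). *Gabrg1*, a subunit that glia express, was higher in VPM (174 to 365 in dLG and 419.9 to 523 CPM in VPM, log2FC -0.86, adjusted p = 0.0319). *Glrb*, of glycine receptors, was so too (85.6 to 233 in dLG and 194 to 349 CPM in VPM, log2FC -1.05, adjusted p = 0.0611). All of these calls but that of *Cacna1b* were lost without VPM c, and most without VPM a or d (adjusted p up to 0.219). No gene named here passed with the neuronal or the oligodendrocyte marker level as a covariate, *Cacna1b* included (adjusted p = 0.142 and 0.297 in edgeR).

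Calcium-binding protein genes were called in 3 of 24 for dLG (12.5%, against 6.48% over all genes) and 2 for VPM (8.33%, against 2.44%). The median log2FC was -0.05. After omission of 1 library, the calls numbered 2 (without VPM a or c) to 4 (without dLG d) in dLG and 0 to 4 in VPM. *Necab1* was at 21.9, 25.7, 33.0, 27.8, and 6.57 in dLG and 1.26, 0.333, 2.45, and 1.59 CPM in VPM (log2FC 4.02, SE 0.56, adjusted p = 0.00399), lowest of its group in dLG e. *Ncs1*, a neuronal calcium sensor, was at 41.4 to 62.1 in dLG and 19.6 to 33.9 CPM in VPM (log2FC 0.88, adjusted p = 0.0342). *Necab3* was higher in VPM (5.88 to 9.49 in dLG and 11.9 to 15.97 CPM in VPM, log2FC -0.94, adjusted p = 0.0443), as was *S100b*. Of 18 neuropeptide and granin genes, 3 were higher in dLG (16.7%, against 6.48% over all genes). None was higher in VPM, and the median log2FC was 0.12. With 1 library left out, the calls numbered 0 (without dLG e or VPM a, b, or c) to 5 (without dLG d) in dLG and 0 to 1 in VPM. *Npy* was at 1.20 to 9.78 in dLG and 0.776 to 0.931 CPM in VPM (log2FC 2.302, adjusted p = 0.0701). Somatostatin, *Sst*, was at 0.350 to 7.74 in dLG and 0 to 0.539 CPM in VPM (log2FC 3.59, adjusted p = 0.085). The granin gene *Vgf* was at 118 to 215 in dLG and 23.6 to 114 CPM in VPM (log2FC 1.23, adjusted p = 0.0875). The calls of *Ncs1*, *Necab3*, *Npy*, *Sst*, and *Vgf* were lost without VPM a or c, and others of the libraries (adjusted p up to 0.241).

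Of 77 respiratory chain genes of the nucleus, 8 were higher in VPM (10.4%, against 2.44% over all genes) and none in dLG. A negative log2FC was found for 72, with a median of -0.27, against 0.02 over all genes tested. The list summed to 11826 to 16248 CPM in dLG and 15419 to 17972 CPM in VPM, with dLG e inside the VPM range. Leaving out 1 library gave 1 (without VPM a, c, or d) to 21 (without dLG e) in VPM. With all 9 libraries, DESeq2 called 17 in VPM. *Uqcrc2*, of complex III, was at 183, 169, 127, 176, and 157 in dLG and 240.4, 282, 255, and 243 CPM in VPM (log2FC -0.65, SE 0.13, adjusted p = 0.0238), with no overlap, and 19.7% of its exonic length overlaps *Pdzd9*. *Ndufa9* of complex I was at 147 to 193 in dLG and 224 to 250 CPM in VPM (log2FC -0.50, adjusted p = 0.0347). *Sdhd* of complex II was at 207 to 249.2 in dLG and 284 to 338 CPM in VPM (log2FC -0.46, adjusted p = 0.0409). *Atp5b* of ATP synthase was at 1550 to 1894 in dLG and 2305 to 2588 CPM in VPM (log2FC -0.44, adjusted p = 0.0492), and these did not overlap either. Of 7 tested genes of the mitochondrial genome none passed in edgeR, DESeq2, or limma-voom and 0 had an unadjusted p under 0.05 in edgeR, with a median log2FC of -0.14. Of 32 genes of glycolysis, glycogen, and lactate, 5 were higher in VPM (15.6%, against 2.44% over all genes). In dLG 2 were higher (6.25%, against 6.48%), with a median log2FC of -0.20. The calls numbered 0 to 4 in dLG and 0 (without VPM a, c, or d) to 6 (without dLG d) in VPM when 1 library was left out. On the VPM side, the pyruvate kinase *Pkm* was at 415, 411, 372, 423, and 356 in dLG and 536, 511, 522, and 605 CPM in VPM (log2FC -0.46, adjusted p = 0.042), and 15.3% of its exonic length overlaps *Gm49759*. The lactate dehydrogenase *Ldha* was at 382 to 432 in dLG and 502 to 548 CPM in VPM (log2FC -0.35, adjusted p = 0.0701). The glucose transporter *Slc2a1* was at 102 to 140.3 in dLG and 141 to 193 CPM in VPM (log2FC -0.44, adjusted p = 0.0933). *Pdk2*, a kinase of pyruvate dehydrogenase, was at 63.4 to 83.8 in dLG and 94.0 to 113 CPM in VPM (log2FC -0.52, adjusted p = 0.0427). On the dLG side, the glycogen phosphorylase *Pygb* was at 309 to 501 in dLG and 219.5 to 316 CPM in VPM (log2FC 0.58, adjusted p = 0.0691). *Pdk4* was at 28.3 to 45.8 in dLG and 14.6 to 35.7 CPM in VPM (log2FC 0.94, adjusted p = 0.0879). All calls in this paragraph but that of *Uqcrc2* were lost without VPM a, c, or d (adjusted p up to 0.281).

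Of 28 genes of cholesterol synthesis and transport, 2 were higher in dLG (7.14%, against 6.48% over all genes) and 1 in VPM (3.57%, against 2.44%), with a median log2FC of -0.04. When 1 library was left out, these counts were 0 to 4 in dLG and 0 to 4 in VPM. The efflux transporter *Abca1* was at 136 to 375 in dLG and 95.05 to 186 CPM in VPM (log2FC 0.996, adjusted p = 0.079). The regulator *Srebf2* was at 298 to 573 in dLG and 231 to 304 CPM in VPM (log2FC 0.64, adjusted p = 0.0834). The enzyme *Msmo1*, higher in VPM, was at 495 to 745 in dLG and 1009 to 1217 CPM in VPM (log2FC -0.66, adjusted p = 0.0315). Of 37 cell cycle genes, 33 had a negative log2FC, 1 was higher in dLG and 2 in VPM, with a median log2FC of -0.24. Without 1 of the libraries, the counts were 0 to 1 in dLG and 0 to 11 in VPM. *Ccnd2*, a cyclin of the first growth phase, was at 256, 329, 424, 245, and 434 in dLG and 158, 220.1, 144, and 155 CPM in VPM (log2FC 0.99, SE 0.20, adjusted p = 0.03). The mitotic gene *Bub1* was higher in VPM (19.5 to 50.6 in dLG and 56.0 to 78.8 CPM in VPM, log2FC -1.04, adjusted p = 0.0506), as was *Ccnb1* (51.0 to 79.8 in dLG and 78.3 to 113 CPM in VPM, log2FC -0.58, adjusted p = 0.087). Of 77 ribosomal protein genes 1 was higher in VPM (1.30%, under the 2.44% over all genes), with a median log2FC of -0.21 over the list. This was *Rps7* (4.84 to 6.09 in dLG and 8.43 to 9.80 CPM in VPM, log2FC -0.77, adjusted p = 0.0804). After omission of 1 library, the calls numbered 0 to 8 in VPM. All of these calls were lost without VPM c, and most without VPM a or d (adjusted p up to 0.259).

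**Figure D5:**
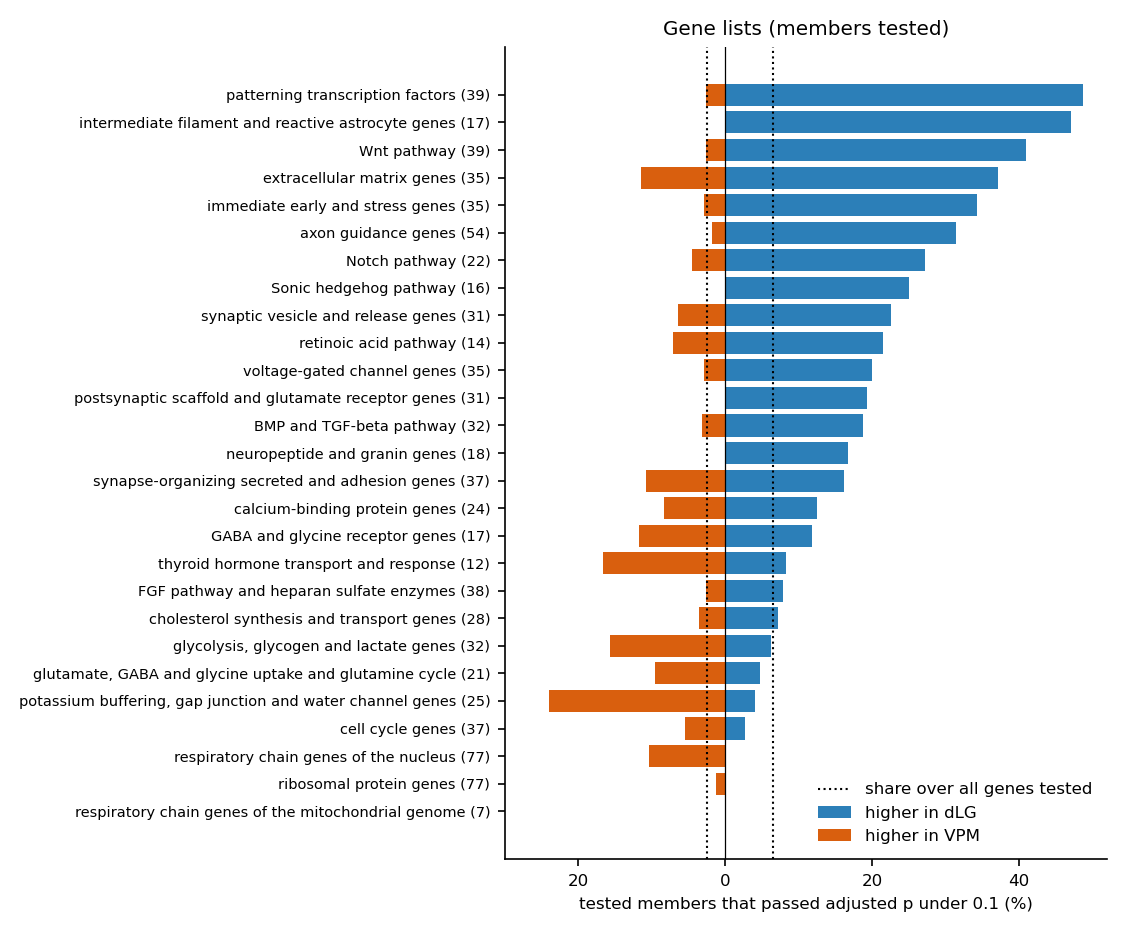
Share of the tested members of each gene list, other than the cell type marker lists and the genes named by the study, that passed as higher in dLG (blue, to the right) or higher in VPM (orange, to the left), in percent, with the number tested in brackets. Dotted lines mark the shares over all genes tested, 6.48% and 2.44%, and the longest blue bar among the lists plotted is that of patterning transcription factors and the longest orange bar that of potassium buffering, gap junction, and water channel genes.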

How the data were processed

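Libraries were made from GFP-positive cells sorted from 4 pooled P7 brains each, by SMARTer amplification and NEBNext fragment libraries, and sequenced single-end on a single flow cell. The deposited values are raw read counts per gene, which per the study's methods and the submitters' processing notes the authors obtained by trimming with Cutadapt and Trim Galore, alignment with STAR 2.7.0d to GRCm38 (mm10), SAMtools 1.9, and featureCounts of Subread 1.6.4 on an Ensembl annotation, with FastQC 0.11.7 for quality. The strand setting is not given in the sources used here, so reads of overlapping genes on opposite strands cannot be told apart. Of 26556 gene identifiers, 26548 matched the Ensembl 96 annotation and 8 did not.

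Groups came from the labels. The 9 libraries were fitted together in edgeR 4.0.16 (R 4.3.3) with TMM scaling, filterByExpr, and robust quasi-likelihood tests, and p-values were BH-adjusted over the 16338 genes left, with a threshold of 0.1. The standard error (SE) of a log2FC is its size divided by the square root of F. Principal components were taken from regularized log counts of DESeq2 1.42.0. Alternatives used DESeq2, apeglm 1.24.0, limma-voom 3.58.1, other scalings, filters, thresholds, covariates, and sets of libraries. The code was tested on simulated counts with 200 changed genes, of which edgeR recovered 42.3% of 97 at a log2FC of 1 and 80.4% of 97 at 2, with 10.5% of 133 calls false. DESeq2 recovered 51.0% and 86.0% of 100 each, with 30.8% of 198 calls false.

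Named genes are the 12 of lowest p in each direction among called genes with groups that do not overlap and a mean of at least 1 CPM in the higher group, 11 genes that the study named, up to 4 called members of each list per direction, and the 2 most abundant members of each marker list. The comparison, the members, and the lists were chosen with earlier results of these data known. Promoter sequences are from RefSeq (GRCm38.p6). A few genes that these rules name are not reported here.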

Additional observations from a re-analysis of the deposited data

Results flagged for a closer look

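In 9 of 102 groups of libraries tested, the highest or lowest library lay farther from the others than Dixon's 95% critical value allows, and chance flags about 1 group in 20. In dLG, library c had a second principal component score of -9.95 against 2.33 to 7.13 in the others, a choroid plexus marker sum of 117 CPM against 70.6 to 83.8 CPM, and 90.1 CPM of *Plec* against 44.0 to 57.3 CPM. Library b had 31.6 CPM of *Adra2a* against 24.1 to 25.9 CPM and 64.8 CPM of *Amz1* against 69.3 to 69.9 CPM. In VPM, library b had 1.345% mitochondrial counts against 0.556% to 0.671%, a first component score of -6.72 against -11.0 to -10.7, and 136 CPM of *Vim* against 87.3 to 95.4 CPM. Library a had 92.0 CPM of *Csrp1* against 122 to 127 CPM.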

How the results depend on the processing

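Of the 155 named genes that passed, none changed sign under any setting run, and the other called genes were not followed in this way. The 1058 genes higher in dLG and 398 higher in VPM became 2009 and 1017 with DESeq2, with or without apeglm, 430 and 139 at an adjusted p under 0.05, and 531 and 65 at a log2FC over 1 in size. They became 568 and 183 with a term for the library number series, 188 and 71 with the neuron marker level, and 72 and 22 with the oligodendrocyte marker level. Limma-voom called 698 higher in dLG. The genes higher in VPM numbered 702 with at least 10 counts in every library, 678 within the series of dLG a and b and VPM c and d, and 1029 in the fit of all 17 libraries. Within dLG d and e and VPM a and b, 0 genes passed in either direction in edgeR, with 640 at an unadjusted p under 0.05. With 1 library left out the counts ranged from 164 (without VPM a) to 1885 (without dLG d) for dLG and from 41 (without VPM c) to 1325 (without dLG d) for VPM. Libraries with the same letter did not deviate together (correlations of -0.051, -0.092, 0.009, and 0.015, and none correlated best with its own letter), so the letters were not taken as pairs, and with the replicate block the counts were 370 and 119.

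The difference in the first principal component kept its direction and its side of the threshold in all settings (exact permutation test, p = 0.0079 to 0.0357). Of 4465 values of the 160 named genes tested, 3419 kept their call, 1039 lost it, and 7 gained one. Of 155 called named genes, 60 passed with any 1 library left out, and all 24 leading genes passed there and with each marker covariate. Of 2184 list counts, 1438 stayed within 1.5 times. The depth limits levels under 0.140 to 0.166 CPM.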

Other observations

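The named genes were looked up in the other 8 astrocyte libraries of the series, 4 of the medial geniculate nucleus (MGv) and 4 of the cortex. They were scaled together with the 9 libraries, as a description with no test, and only some are given here. *Sp9* was highest in dLG, with 59.0 ± 18.5 CPM in dLG, 0.441 ± 0.311 in VPM, 2.39 ± 1.35 in MGv, and 7.52 ± 4.28 in the cortex (SD, n = 5, 4, 4, and 4). *Zic4* was also highest in dLG and next in VPM, with 33.7 ± 10.8 CPM in dLG, 7.67 ± 1.32 in VPM, 1.47 ± 0.995 in MGv, and 0.0124 ± 0.0248 in the cortex. *Igsf3* and *Vim*, by contrast, were lowest in VPM, with 32.9 ± 6.51 CPM in dLG, 6.96 ± 1.14 in VPM, 21.1 ± 1.61 in MGv, and 21.7 ± 3.30 in the cortex for *Igsf3* and 321 ± 31.2 CPM in dLG, 104 ± 22.1 in VPM, 351 ± 151 in MGv, and 146 ± 14.03 in the cortex for *Vim*. *Gfap* was lowest in VPM as well, with 534 ± 567 CPM in dLG, 12.3 ± 4.77 in VPM, 1864 ± 2494 in MGv, and 495 ± 45.1 in the cortex, and ranged from 36.1 to 5525 CPM over the 4 MGv libraries. *Tnc* and *St6galnac5*, also lowest in VPM, had their highest means outside the dLG. *Tnc* was at 221 ± 31.4 CPM in dLG, 41.7 ± 10.3 in VPM, 398 ± 188.5 in MGv, and 304 ± 64.9 in the cortex. *St6galnac5* was at 18.9 ± 2.63 CPM in dLG, 3.79 ± 0.769 in VPM, 9.95 ± 7.71 in MGv, and 184 ± 15.8 in the cortex.

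Among the genes higher in VPM, *Adra2a* was highest in VPM, with 26.0 ± 3.16 CPM in dLG, 108 ± 22.4 in VPM, 37.8 ± 3.08 in MGv, and 21.5 ± 4.28 in the cortex. *Dio2*, *Hapln1*, and *Smim3* were higher still in the cortex. *Dio2* was at 6.53 ± 2.39 CPM in dLG, 23.6 ± 5.13 in VPM, 4.71 ± 1.59 in MGv, and 95.4 ± 21.4 in the cortex, *Hapln1* at 14.4 ± 3.32 CPM in dLG, 45.4 ± 5.70 in VPM, 8.77 ± 3.40 in MGv, and 120.5 ± 5.43 in the cortex, and *Smim3* at 7.34 ± 1.69 CPM in dLG, 24.2 ± 4.43 in VPM, 9.07 ± 2.10 in MGv, and 78.4 ± 14.7 in the cortex. *Gjb6* was at 76.3 ± 8.27 CPM in dLG, 158 ± 28.6 in VPM, 29.2 ± 5.17 in MGv, and 151 ± 18.4 in the cortex, so that VPM and the cortex were close and the MGv lowest. *Il33* was close in VPM and MGv, with 41.0 ± 9.78 CPM in dLG, 119 ± 17.6 in VPM, 125 ± 29.2 in MGv, and 16.4 ± 3.84 in the cortex.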
